A study of Mus musculus with 15 samples.

Results

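Hsp90ab1 and Ppia encode abundant cytosolic proteins that help other proteins fold. On these arrays they are 2 of the 15 genes whose probes carry a RefSeq accession, out of 60915 probes in all. Each has 1 such probe, printed in 20 spots on every array. Whether probes without a gene name also read them could not be checked. The 2 named probes were found by their accessions (NM_008302.3 for Hsp90ab1 and NM_008907.1 for Ppia), and all 15 accessions matched a symbol in a RefSeq gene table. The pair was chosen by name with the group means of these same signals already known, so its levels and differences are a description, with standard errors and without p-values.

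Hsp90ab1 is the constitutive beta form of HSP90, a dimeric ATPase that acts late in folding, on kinases, steroid hormone receptors and other clients delivered by the HSP70 machinery and by co-chaperones. Ppia is cyclophilin A, a peptidyl-prolyl cis-trans isomerase that speeds the turning of peptide bonds before proline and is the main cellular target of cyclosporin A. Cells under stress can also release it, and outside the cell it attracts leukocytes. Transcription of heat shock genes is driven by the factor HSF1 when unfolded protein accumulates, and both Hsp90ab1 and Ppia are in common use as reference genes for quantitative PCR.

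Liver RNA of C57BL/6 mice was hybridised in 3 groups of 5 one-colour arrays. Sham mice had a laparotomy and handling of the hepatic hilum with no vessel clamped. In the ischaemia-reperfusion (I/R) group, the left lateral and median lobes, 70% of the liver, were clamped for 75 min, and 2 h of reperfusion followed. Preconditioned (IPC) mice differed in 1 step: 10 min of ischaemia and 10 min of reperfusion came before the same 75 min of ischaemia and 2 h of reperfusion. All groups had pentobarbital anaesthesia (60 mg/kg), and age and sex are not used here. The design names 18 mice in all, 6 to a group, but no label says which mouse an array came from. The standard errors therefore cover the spread from array to array, part or all of which may be technical.

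The file headers give 2 scan times. All 5 sham arrays and I/R arrays 1, 2 and 3 were read in scan 2. All 5 IPC arrays and I/R arrays 4 and 5 were read in scan 1. Scan 1 was brighter: the 75th percentile of the log2 signal lay between 8.48 and 8.77 there and between 8.07 and 8.31 in scan 2. The share of probes well above background ran from 49.98% to 59.6% per array. In I/R against sham, IPC against I/R and IPC against sham, 10831 (31.0%), 2749 (7.86%) and 10504 (30.0%) of the 34985 tested probes passed an adjusted p of 0.05 in limma. The difference between the 3′ and 5′ control spots of Gapdh was 0.80 to 0.97 log2 in sham, 0.39 to 0.70 in I/R and 0.51 to 0.65 in IPC. The same difference for Pgk1 was 7.51 to 7.65, 7.51 to 7.92 and 7.79 to 7.95. These differences moved with the groups and with the scans, and their part in the results was not tested.

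The RefSeq promoter table used here (build GRCm38.p6) holds an entry for Ppia and none for Hsp90ab1. The 250 bases before the Ppia start, on the plus strand at chr11:6415617-6415866, are shown because the 2 genes were lower together in I/R and the heat shock motif can be looked for in them. Capitals mark the matches to the motifs searched.
Ppia: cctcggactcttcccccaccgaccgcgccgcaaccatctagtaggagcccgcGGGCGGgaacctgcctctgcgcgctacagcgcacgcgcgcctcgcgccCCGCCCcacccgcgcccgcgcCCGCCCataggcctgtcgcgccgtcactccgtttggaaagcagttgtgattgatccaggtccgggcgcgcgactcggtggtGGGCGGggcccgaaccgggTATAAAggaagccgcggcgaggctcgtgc
The TATA box (TATAAA, both strands searched) occurred 1 time, with its first base 29 bases before the start, and 12.4% of 32851 promoter windows of the same length hold it. The GC box (GGGCGG, both strands) occurred 4 times, at 198, 150, 129 and 48 bases before the start, and 32.7% of windows hold at least 1. The CCAAT box (CCAAT, both strands), found in 33.8% of windows, was not matched. Neither pair of heat shock repeats (GAANNTTC, in 6.69% of windows, or TTCNNGAA, in 7.17%, each its own reverse complement) was matched in this window. No motif overlapped another.

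All 300 spots of each gene were well above background and none was saturated. Of these, 286 spots of Hsp90ab1 and 287 of Ppia were used, after the spots that the scanner software marked as outliers had been left out. Within an array, the SD between spots had a median of 0.036 log2 for Hsp90ab1 and 0.0403 for Ppia, which gives a median standard error of 0.00805 and 0.00901 for the mean of an array. Between arrays of a group the SD was 0.0756 for Hsp90ab1 and 0.0812 for Ppia, against a median of 0.166 over all tested probes. Of the tested probes, 9.37% and 12.6% had a smaller spread; the probes that carry no gene name are read by 1 spot each.

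The first question is what clamping and reperfusion changed against a sham operation. The signal of Hsp90ab1 above the array's 75th percentile was 5.72, 5.83, 5.81, 5.75 and 5.82 log2 on sham arrays 1 to 5. On I/R arrays 1 to 5 it was 5.57, 5.56, 5.60, 5.35 and 5.48. Every I/R array lay below every sham array, and the lowest were I/R arrays 4 and 5, the ones of scan 1. The means were 5.79 ± 0.0491 in sham and 5.51 ± 0.103 in I/R (SD, n = 5). The RNA signal of Hsp90ab1 was thus 1.21-fold lower in I/R, a difference of -0.27 ± 0.0548 (SE). Within scan 2 alone, where all sham arrays lie, the difference was -0.21 ± 0.0479 (SE).

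The level of Ppia was lower in I/R too. Its signal was 8.72, 8.78, 8.72, 8.64 and 8.72 log2 on the sham arrays and 8.44, 8.45, 8.29, 8.47 and 8.61 on the I/R arrays. Again all I/R arrays lay below all sham arrays, but here the lowest was array 3 and the highest was array 5. The means were 8.72 ± 0.052 and 8.45 ± 0.113 (SD, n = 5), 1.20-fold lower in I/R, a difference of -0.26 ± 0.0575 (SE). Within scan 2 it was -0.32 ± 0.0589 (SE). Without scaling between arrays it was -0.15, against -0.17 for Hsp90ab1, and there the median of all probes moved up by 0.11. In bulk liver RNA, fewer cells of a type and less RNA per cell cannot be told apart.

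Both genes thus had groups that did not overlap in I/R against sham, as did 23.2% of all tested probes, 13.0% with I/R lower. The median difference of all tested probes was -0.03, and 18.9% of them had a difference more negative than that of Hsp90ab1 and 20.03% one more negative than that of Ppia. Nothing is read from these shares, since the pair was chosen with this contrast known.

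**Figure D1:**
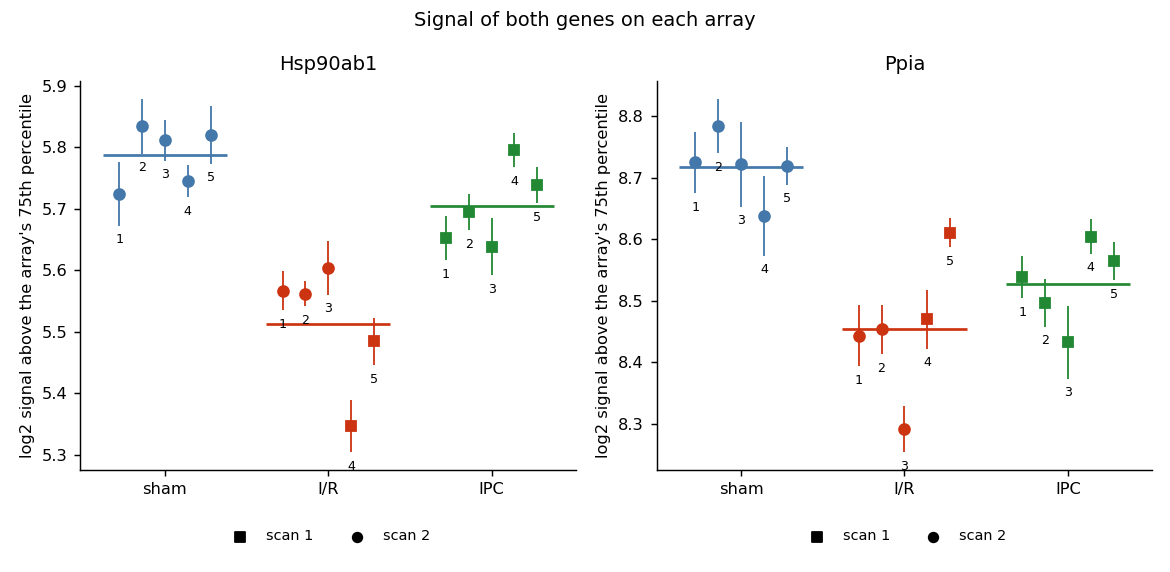
Signal of Hsp90ab1 (left) and Ppia (right) on each array, as log2 above the array's 75th percentile; points are means over 20 spots at most, bars the SD between spots, horizontal lines the group means, numbers the replicate, squares scan 1 and circles scan 2. All I/R arrays lie below all sham arrays for both genes, and the IPC arrays lie above all I/R arrays for Hsp90ab1 and among them for Ppia.

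The second question is whether a short preconditioning cycle before the long ischaemia altered the signal. Hsp90ab1 stood at 5.65, 5.69, 5.64, 5.80 and 5.74 log2 on IPC arrays 1 to 5, all above the highest I/R array at 5.60. Its mean was 5.70 ± 0.0647 (SD, n = 5), which is 1.14-fold higher than in I/R, a difference of 0.19 ± 0.0548 (SE). Of all tested probes, 8.38% had groups that did not overlap in this comparison, 3.97% with IPC higher. Within scan 1, against I/R arrays 4 and 5 only, the difference was 0.29 ± 0.0739 (SE). Without scaling between arrays it was 0.45, where the median of all probes itself moved up by 0.26.

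Ppia stood at 8.54, 8.50, 8.43, 8.60 and 8.56 log2 on the IPC arrays, within the range of the I/R arrays. The mean was 8.53 ± 0.0657 (SD, n = 5), 1.05-fold higher than in I/R, a difference of 0.07 ± 0.0575 (SE) that is below the SD between arrays of a group. Within scan 1 its sign turned, to -0.01 ± 0.0745 (SE). It was 0.03 without I/R array 3 and 0.11 without I/R array 5.

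In IPC against sham the order of the pair was the other way round. Hsp90ab1 overlapped with sham, with a difference of -0.08 ± 0.0548 (SE), 1.06-fold lower. Ppia did not overlap, at -0.19 ± 0.0575 (SE), 1.14-fold lower, in a comparison where 27.3% of all tested probes had groups that did not overlap, 15.9% with IPC lower. Sham and IPC arrays share no scan, so scan and group cannot be told apart without the I/R arrays that link the scans. With scan as a block the differences were 0.08 ± 0.0782 (SE) for Hsp90ab1 and -0.33 ± 0.0883 for Ppia. The difference for Hsp90ab1 was also above 0 under quantile normalization, at 0.03, and with scan as a random block, at 0.00074, while that for Ppia turned only without scaling, to 0.18, where the median of all probes itself moved up by 0.37. The 3 comparisons share arrays in pairs. By mean level the order was sham, IPC and I/R for both genes; the neighbours sham and IPC overlapped for Hsp90ab1, and the neighbours IPC and I/R for Ppia.

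**Figure D2:**
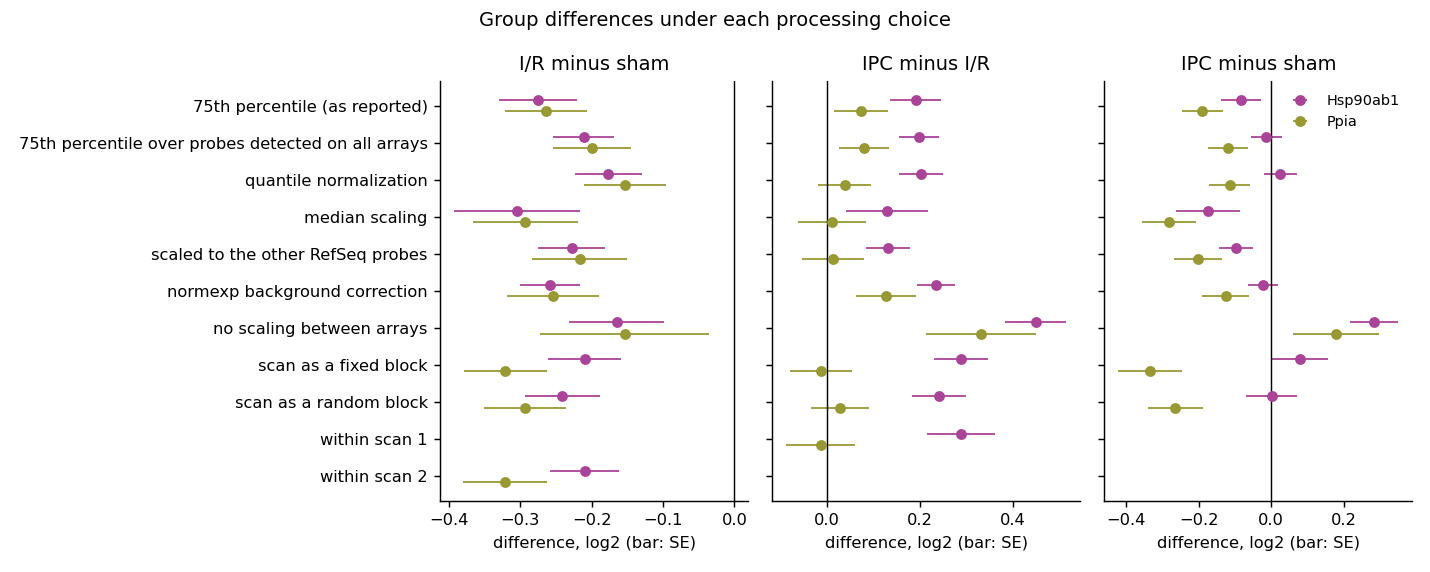
Difference between groups (log2; bars are SE) for Hsp90ab1 and Ppia, one panel per comparison and one line per processing choice, the top line as reported. I/R minus sham is below 0 for both genes in every line, from -0.30 to -0.17 for Hsp90ab1 and from -0.32 to -0.15 for Ppia; IPC minus sham crosses 0 for Hsp90ab1 under quantile normalization, with scan as a fixed or random block and without scaling, and for Ppia without scaling. IPC minus I/R of Ppia is -0.01 with scan as a fixed block and within scan 1.

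A difference between both genes on the same array does not depend on how that array was scaled by a single number, and only its change between groups is read, since the levels of different probes are not comparable. Hsp90ab1 minus Ppia was -3.00, -2.95, -2.91, -2.89 and -2.90 log2 on the sham arrays. On the I/R arrays it was -2.88, -2.89, -2.69, -3.12 and -3.13, and on the IPC arrays -2.89, -2.80, -2.79, -2.81 and -2.83. I/R arrays 4 and 5, those of scan 1, were below every sham and IPC array. Of the I/R arrays of scan 2, array 3 was above every sham and IPC array, while arrays 1 and 2 lay close to the highest sham arrays and the lowest IPC array.

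In I/R minus sham the change of this difference was -0.01 ± 0.0711 (SE) on all arrays and 0.11 within scan 2. It was 0.12 ± 0.0711 in IPC minus I/R, with overlapping groups, and 0.30 within scan 1, where all 5 IPC arrays lay above both I/R arrays. In IPC minus sham it was 0.11 ± 0.0711, and the groups did not overlap, with the highest sham array at -2.892 and the lowest IPC array at -2.886. How many other pairs of probes fail to overlap here was not counted, so nothing is read from it. Of single probes, 27.3% had groups that did not overlap in this comparison. The sham and IPC groups share no scan, and the change was 0.41 with scan as a fixed block and 0.27 as a random block. Hsp90ab1 was therefore higher relative to Ppia in IPC than on the 2 I/R arrays of the same scan, too few to give a spread. The I/R arrays of scan 2 had a mean of -2.82, the same as the IPC arrays at this rounding.

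**Figure D3:**
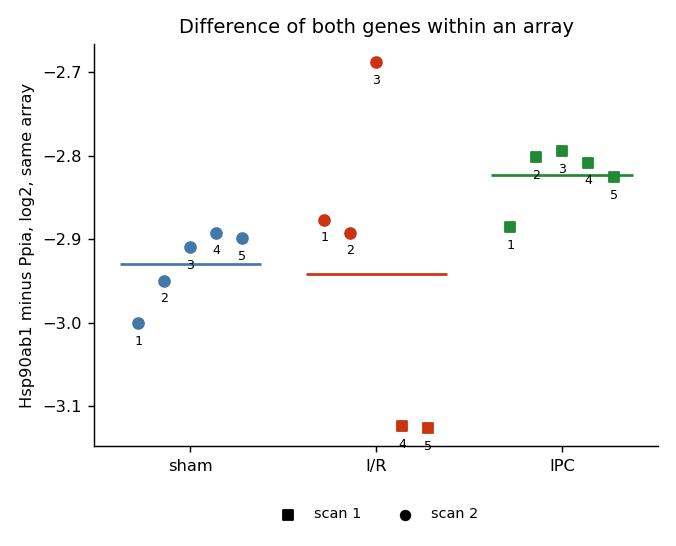
Hsp90ab1 minus Ppia on the same array (log2), by group; horizontal lines are group means, numbers the replicate, squares scan 1 and circles scan 2. The I/R arrays of scan 1 lie at -3.12 and -3.13 and those of scan 2 between -2.89 and -2.69, while the IPC arrays lie between -2.89 and -2.79.

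The array-to-array spread of Hsp90ab1 minus Ppia lay mostly in the I/R group. Its SD was 0.0453 log2 on the sham arrays and 0.0367 on the IPC arrays, below the SD of either gene alone in those groups, and 0.186 on the I/R arrays, which come from both scans. Pooled over the groups it was 0.112, and within group and scan (11 degrees of freedom, a split added after the pooled value was seen) it was 0.0598.

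Each gene was also set against the other 13 named genes on the same array. Pooled over the groups, Hsp90ab1 had an SD under 0.05 log2 with 7 of them, a limit chosen after the values were seen, and Ppia with 0. The 4 genes with the lowest pooled SD against Hsp90ab1 were picked. Its SD was 0.0212 against Rpl13a (a protein of the large ribosomal subunit) and 0.026 against Nono (a nuclear RNA-binding protein). It was 0.0273 against Tuba1b (an alpha-tubulin) and 0.0297 against Tfrc (the transferrin receptor). Ppia against those 4 genes had an SD of 0.114, 0.119, 0.132 and 0.106, a comparison that this choice tilts toward Hsp90ab1. These larger values lay in the I/R group: Ppia minus Rpl13a had an SD of 0.191 there, against 0.0413 in sham and 0.0265 in IPC. The lowest pooled SDs of Ppia were 0.069 against Actb, 0.0695 against Gapdh and 0.0766 against G6pd2. Hsp90ab1 against these genes had 0.0996, 0.0784 and 0.0827.

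Within group and scan, the SD of Ppia against the same 4 genes was 0.051, 0.0712, 0.0606 and 0.0656, and that of Hsp90ab1 was 0.0213, 0.0271, 0.0168 and 0.0286. On this measure 9 of the 13 genes were closer to Hsp90ab1 than Ppia was, and 1 of the 13, Rpl13a, was closer to Ppia than Hsp90ab1 was. In sham alone the counts for Hsp90ab1 and Ppia were 7 and 5, and in IPC alone 6 and 6. In I/R, with both scans together, they were 11 and 7. Within group and scan, Hsp90ab1 had an SD under 0.05 with 8 of the 13 genes, and Ppia with 0. This limit was chosen after the values were seen. How many other probes reach it with the same 13 genes was not counted, so nothing is read from it. The largest SDs of Ppia lay on the I/R arrays of scan 2, at 0.0971, 0.148, 0.123 and 0.119 against the same 4 genes. These SDs rest on 3 arrays, and Ppia stood at 8.29 log2 on array 3, against 8.44 and 8.45 on arrays 1 and 2. Array 3 also had the lowest 75th percentile of all arrays, at 8.07. Its part in the counts within group and scan was not tested. On the IPC arrays Ppia had SDs of 0.0265, 0.0303, 0.0246 and 0.0277, and Hsp90ab1 had 0.0287, 0.0223, 0.022 and 0.0331. On the sham arrays Ppia had 0.0413, 0.0451, 0.0438 and 0.0619, and Hsp90ab1 had 0.016, 0.0294, 0.011 and 0.0312.

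**Figure D4:**
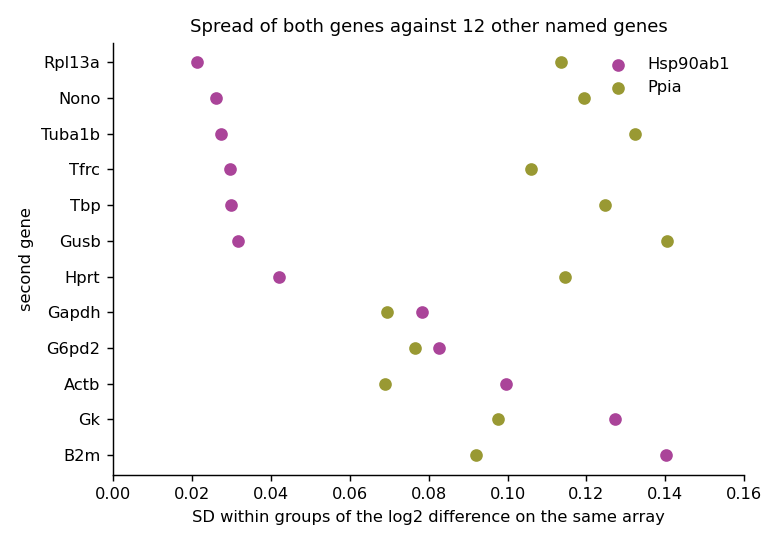
SD within groups, pooled over sham, I/R and IPC with both scans together, of the log2 difference on the same array between Hsp90ab1 or Ppia and each of 12 other named genes; Ldhal6b, at 0.462 and 0.475, is left out for scale. Hsp90ab1 lies between 0.0212 and 0.0421 with 7 genes for which Ppia lies between 0.106 and 0.141. On this pooled measure Ppia is the closer of the pair to Gapdh, G6pd2, Actb, Gk and B2m. Within group and scan that order turns for each of them. There the SD is 0.0467, 0.0613, 0.0586, 0.094 and 0.08 for Hsp90ab1, and 0.0642, 0.0692, 0.0705, 0.102 and 0.0936 for Ppia. In sham alone and in IPC alone, Ppia is still the closer to Gapdh, G6pd2, Gk and B2m. For Actb this holds in IPC only. On the I/R arrays of scan 2 the SD is 0.00384, 0.0494, 0.0164, 0.022 and 0.0327 for Hsp90ab1, in the same order of genes. For Ppia it is 0.117, 0.1002, 0.101, 0.135 and 0.144 on those arrays. Ppia minus Gapdh is 0.141, 0.152 and -0.0554 log2 on I/R arrays 1 to 3.

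Rpl13a was the gene with the lowest SD against Hsp90ab1 when pooled over the groups. It was picked for that SD, and the SE below is computed from the same SD, so the SE may be too small. The difference was 1.55 to 1.58 log2 on the sham arrays, 1.49 to 1.53 on the I/R arrays and 1.61 to 1.68 on the IPC arrays. The 3 groups did not overlap, and how many other pairs of probes separate them was not counted. The change was -0.05 ± 0.0134 (SE) in I/R minus sham and -0.06 within scan 2, beside a difference of -0.22 ± 0.0553 (SE) for Rpl13a itself. In IPC minus I/R it was 0.13 ± 0.0134 (SE) and 0.12 within scan 1, and in IPC minus sham 0.07 ± 0.0134.

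Relative to the 13 genes in turn, Hsp90ab1 was lower in I/R than in sham against 12 (the exception was Tuba1b), with groups that did not overlap against 9. It was higher in IPC than in I/R against 11, with no overlap against 9; the exceptions were Tfrc and Ldhal6b, and within scan 1 Tfrc alone. Ppia was also lower in I/R against 12, without overlap against 4. In IPC it was higher than in I/R against 8, with overlap against each of them, and within scan 1 against 3. The 13 genes vary together, so these counts are not independent. Their own differences, from -0.45 to 0.62 in I/R minus sham, enter the counts too. How often other probes fail to overlap against the same 13 genes was not counted, so nothing is read from the counts. Of single probes, 13.0% had groups that did not overlap with I/R below sham, and 3.97% with IPC above I/R.

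Over all 15 arrays, likeness was measured as the root mean square difference between 2 profiles after the mean of each had been subtracted. Among the 14 other named genes the most like Hsp90ab1 were Tbp, the TATA-binding protein (0.0471 log2), Rpl13a (0.0556) and Nono (0.0795), with Ppia ranked 6 (0.114). For Ppia they were Gapdh (0.0637), Rpl13a (0.103) and G6pd2, a glucose-6-phosphate dehydrogenase retrogene (0.104), with Hsp90ab1 ranked 5. The median over all 34984 other tested probes was 0.254 for Hsp90ab1 and 0.246 for Ppia. Of all those probes, ASMM10P031992 (0.0282) and ASMM10P000110 (0.0323) were nearest to Hsp90ab1, and ASMM10P030556 (0.0441) and ASMM10P039777 (0.0446) to Ppia; no table used here pairs them with a gene. The first of these differed by -0.26 in I/R minus sham and 0.17 in IPC minus I/R, and ASMM10P030556 by -0.30 and 0.06.

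Beside the pair, the other 13 named genes had a median difference of -0.10 in I/R minus sham, from -0.45 for Tuba1b to 0.62 for Actb, with 9 of 13 below 0. In IPC minus I/R their median was 0.04, and Hsp90ab1 at 0.19 stood below Tfrc (0.38) and Ldhal6b (0.23 ± 0.256, SE) and above the other 11. With the array scaled to these 13 genes in place of the 75th percentile, Hsp90ab1 differed by -0.23 in I/R minus sham and 0.13 in IPC minus I/R, and Ppia by -0.22 and 0.01.

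**Figure D5:**
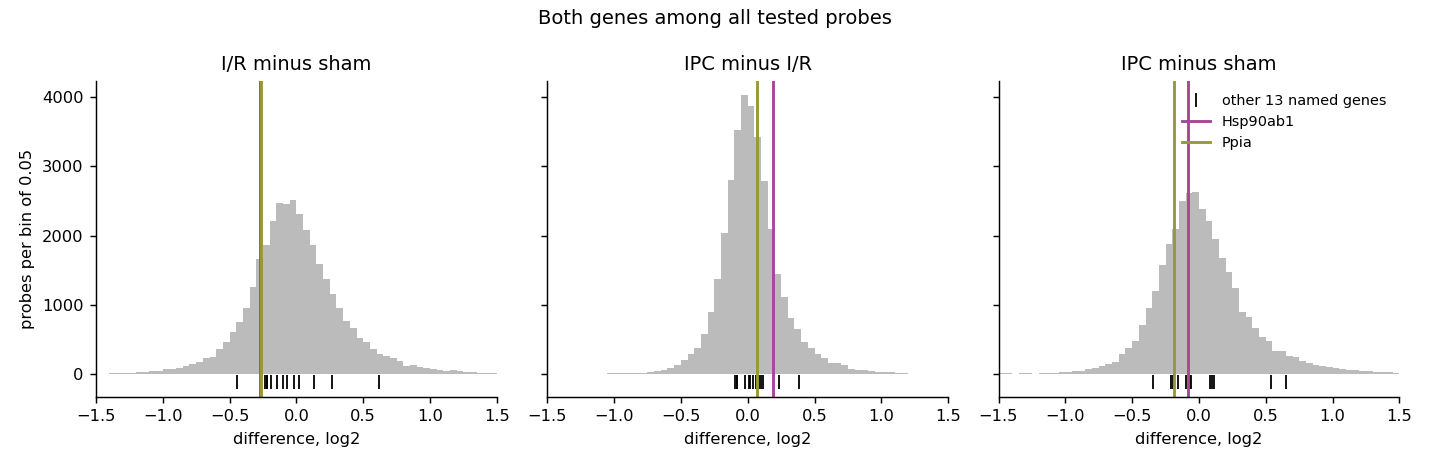
Differences of all 34985 tested probes (grey bars, number of probes per bin of 0.05 log2), of Hsp90ab1 and Ppia (coloured lines) and of the other 13 named genes (ticks under the axis), one panel per comparison; probes beyond 1.5 are not drawn. The lines of both genes lie together at -0.27 and -0.26 in I/R minus sham, and apart at 0.19 and 0.07 in IPC minus I/R.

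Other chaperones could not be set beside the pair. Of 67 genes of protein folding that were listed (HSP90, HSP70 and HSP40 families, small heat shock proteins, chaperonin subunits, cyclophilins, FK506-binding proteins, co-chaperones, disulphide isomerases and the factors HSF1 and HSF2), 2 had a probe named by the files and tables used here, and these were Hsp90ab1 and Ppia. None of 26 marker genes of hepatocytes, bile duct, endothelial, Kupffer, stellate and blood cells had one, so the tissue and its cell makeup were not checked.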

How the data were processed

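Liver RNA was amplified with random primers and labelled with Cy3, as the labels' protocols state. The deposited spot intensity is the processed signal of Agilent Feature Extraction 11.0.1.1, on a grid that names build mm9, per the file headers. The flags (well above background, outlier, saturated) are other values of the same deposited files. Any later normalization is not given in the sources used here.

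From these, log2 of the processed signal minus the 75th percentile over an array's unmarked spots was computed, without 300 negative-control spots, and averaged over the unmarked spots of a probe. Probes well above background on at least 5 arrays, with an unmarked spot on every array, were tested (34985, 57.43% of 60915). Group means over all 15 arrays, which leave 12 residual degrees of freedom, were estimated in limma 3.58.1 (R 4.3.3), and p-values were adjusted by Benjamini-Hochberg. The standard errors of Hsp90ab1 and Ppia come from this fit, those of differences between genes from the spread over the 15 arrays. The fit was tested on simulated data. No 2 arrays of a group were copies: over the tested probes the SD of their difference was at least 0.246 log2 in all 30 pairs. Genes that are no part of the pair were named by likeness, as the 3 nearest named genes and the 2 nearest probes; other named genes were added after their values were seen. The members and lists were chosen with earlier results of these data known. The number of arrays limits the precision.

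Alternatives were other scalings, normexp background correction (offset 50, on the median spot and background intensity that the authors deposited), spot medians, outlier spots kept, other filters, moderation with a trend, fits on 2 groups, scan or replicate number as a block, 1 scan alone, leaving out each array and, added after seeing the data, no scaling. A fit on 2 groups or a replicate block could not change a difference between group means. In I/R minus sham, scan as a fixed block and scan 2 alone gave the same difference. In IPC minus I/R, scan as a fixed block and scan 1 alone did.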

Additional observations from a re-analysis of the deposited data

How the results depend on the processing

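Both genes were lower in I/R than in sham under each alternative that could change this and without any 1 array (-0.30 to -0.23 for Hsp90ab1, -0.30 to -0.22 for Ppia). The difference moved by more than the SD between arrays under quantile normalization (-0.18 and -0.15) and without scaling (-0.17 and -0.15), a setting added after the data were seen. IPC minus I/R of Hsp90ab1 was 0.15 to 0.21 without 1 array, moved to 0.29 with scan as a fixed block and within scan 1, and to 0.45 without scaling. For Ppia the same difference was 0.03 to 0.11 without 1 array, -0.013 with scan as a fixed block and within scan 1, and 0.33 without scaling. IPC minus sham of Hsp90ab1 moved to -0.18 under median scaling, and turned to 0.025 (quantile normalization), 0.079 (scan as a fixed block), 0.00074 (scan as a random block) and 0.28 (no scaling), with -0.11 to -0.07 without 1 array. For Ppia it moved to -0.28 under median scaling and -0.33 with scan as a fixed block, and turned to 0.18 without scaling, with -0.21 to -0.17 without 1 array. Without scaling, the median of all probes shifted by 0.11, 0.26 and 0.37 in I/R minus sham, IPC minus I/R and IPC minus sham.

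Hsp90ab1 minus Ppia in I/R minus sham turned from -0.01 to 0.11 with scan as a fixed block and within scan 2, to 0.052 with scan as a random block, and lay between -0.075 and 0.035 without 1 array, positive without I/R array 4 or 5. In IPC minus I/R it moved to 0.30 with scan as a fixed block and within scan 1 (0.07 to 0.18 without 1 array: 0.07 without I/R array 4 or 5, 0.18 without I/R array 3). In IPC minus sham it moved to 0.41 with scan as a fixed block and 0.27 as a random block (0.09 to 0.12 without 1 array). The causes were not tested.

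Probes called in IPC against I/R numbered 1788 in a fit on the arrays of the 2 groups, 1394 under median scaling, 1818 without a filter, 1713 with a replicate block and 869 within scan 1, where fewer arrays were used, and 2035 to 3516 without 1 array. In IPC against sham they numbered 15978 without a filter and 6389 with scan as a random block, and 9090 to 9880 without 1 array. In I/R against sham all 12 alternatives gave 8385 to 12280, and 9360 to 11115 without 1 array. Whether the replicate numbers pair the arrays was checked by the deviations from the group means. Those of same-numbered arrays correlated above 0.1 in 5 of 15 pairs, from -0.37 to 0.51, and 3 of 15 arrays were best matched by their own number. As the I/R deviations mix both scans, the check does not settle the question. As every group holds each replicate number 1 time, the replicate block could not change the differences of both genes. The standard errors of these differences moved to 0.0637 for Hsp90ab1 and 0.0591 for Ppia.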
